A study of Mus musculus with 59 samples.

Results

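Replication-dependent histone genes are transcribed and their mRNAs processed by a small set of dedicated proteins, and 7 genes for such proteins are described here across cloned mouse embryos. The 7 genes were chosen by name: Npat and Casp8ap2, which act at the histone gene clusters, Lsm10, Lsm11 and Zfp473 of the U7 machinery, Slbp, which binds the end of histone mRNA, and Eri1, a nuclease of that end. All 7 were found among the 24421 gene rows of the expression table, 1 row each. Beside them stand the 68 rows of histone genes whose names begin with Hist1h to Hist4h followed by a histone number.

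The embryos are clones from somatic cell nuclear transfer (SCNT): an oocyte whose own nucleus has been removed receives that of a body cell, here a cumulus cell by the labels' name for the donor. The labels give 5 RNA libraries each for late 2-cell embryos given trichostatin A (TSA), which inhibits histone deacetylases, and for untreated 1-cell, early 2-cell and late 2-cell embryos, all of strain BDF1. The 1-cell embryos were taken 13 to 14 h after activation, the early 2-cell embryos at 20 to 21 h, and both late 2-cell groups at 33 to 34 h. The oocyte donors were superovulated females of 5 to 7 weeks, polar bodies were removed, and the RNA is labelled as poly(A) RNA. Not given in the sources used here are the dose and timing of TSA and the number of embryos per library. The table holds 1 value per gene and group as FPKM, fragments scaled by transcript length and library total, so no value below has an SD, an n or a p-value, and neighbours in an order of levels cannot be told apart by their spread. FPKM is a share of the library, so a smaller share and less transcript per embryo cannot be told apart.

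Histone mRNAs made in S phase do not end in a poly(A) tail but in a conserved stem-loop. Transcription takes place in the histone locus body, where NPAT, a substrate of cyclin E and Cdk2, switches the genes on, and FLASH, the product of Casp8ap2, helps recruit the cleavage machinery. SLBP binds the stem-loop and the U7 snRNP pairs with an element downstream of it, after which the mRNA is cut, exported, translated and, at the end of S phase, degraded. In the mouse, Slbp mRNA and protein are known to be stored in the oocyte and used by the early embryo.

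The identity of the embryos was checked with marker genes. All 11 oocyte and cleavage-stage markers were at or above 1 FPKM in every group, and their summed FPKM was 7671 in 1-cell, 8202 in early 2-cell and 2839 in late 2-cell embryos, and 2142 with TSA. Zp1, Zp3 and Gdf9 were higher in late than in early 2-cell embryos, and the other oocyte markers were lower. Markers of the 2-cell stage summed to 228, 294 and 259 FPKM by stage and to 309 with TSA. This sum does not tell the stages apart, since its markers went different ways. Tcstv1 was at 139, 203 and 36.8 FPKM by stage, and Zfp352 at 6.38, 26.0 and 129 FPKM. Of 12 cumulus and granulosa markers, 2 reached 1 FPKM with TSA and 3 in each untreated group. Their summed FPKM was 13.5 with TSA and ran from 10.8 to 18.7 in the untreated groups, with Kitl the highest in each. Of these markers, 1, 4 and 3 were listed at 0 by stage and 4 with TSA (Fshr, Inha, Cyp11a1 and Lhcgr).

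The promoters of Slbp and Npat are shown because these are the 2 members whose levels differed at least 2-fold between stages, in opposite directions. Each window runs from 250 bases before to 50 bases after the start site, 5′ to 3′ on the gene's own strand, from RefSeq on GRCm38.p6. Slbp lies on the minus strand of chromosome 5 (gene at 33640055 to 33652574, window chr5:33652525-33652824). Npat lies on the plus strand of chromosome 9 (gene at 53536889 to 53575627, window chr9:53536797-53537096). The start site of the Slbp window is the outer edge of the gene. That of the Npat window, 53537047, lies 158 bases inside the outer edge of the gene. Capitals mark the letters CCAAT or, read on the other strand, ATTGG.
Slbp: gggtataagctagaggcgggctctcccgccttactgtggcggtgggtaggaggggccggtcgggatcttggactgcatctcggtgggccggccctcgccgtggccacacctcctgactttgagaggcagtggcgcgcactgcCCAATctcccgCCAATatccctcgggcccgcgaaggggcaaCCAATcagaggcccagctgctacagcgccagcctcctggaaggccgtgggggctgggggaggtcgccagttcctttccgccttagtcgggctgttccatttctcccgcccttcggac
Npat: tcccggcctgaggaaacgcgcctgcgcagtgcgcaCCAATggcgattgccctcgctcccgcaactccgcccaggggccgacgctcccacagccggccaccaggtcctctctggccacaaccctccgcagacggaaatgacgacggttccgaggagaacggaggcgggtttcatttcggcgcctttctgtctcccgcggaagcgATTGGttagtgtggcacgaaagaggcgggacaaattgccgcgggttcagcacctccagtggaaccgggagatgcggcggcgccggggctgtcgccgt
The Slbp window holds CCAAT 3 times, beginning 108, 97 and 67 bases before the start site. The Npat window holds CCAAT once and ATTGG once, beginning 215 and 47 bases before the start site of the window, and the ATTGG lies inside the gene as annotated. The word is common, with a match on either strand in 37.4% of 32851 RefSeq windows of 300 bases. The E2F words TTTCGCGC, TTTGGCGC, TTTCCCGC and TTTGCCGC, searched on both strands, occur in 2.26% of windows. Among the 6 members with a window, only Casp8ap2 had one (TTTGGCGC, 176 bases before the start site), and it overlaps no CCAAT. These matches are letters in a window and were not related to binding.

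Slbp, the stem-loop binding protein, was by far the most abundant member early and the one whose level differed most. It was at 1239 FPKM in 1-cell, 1096 FPKM in early 2-cell and 214 FPKM in late 2-cell embryos. With TSA it was at 215 FPKM, beside those 214 FPKM without. The 2 earlier groups were thus high and both late 2-cell groups low. In 1-cell embryos Slbp had rank 52 of all rows by FPKM, and in untreated late 2-cell embryos rank 428. Slbp made up 85.1%, 81.7% and 41.9% of the summed FPKM of the 7 members at the 3 stages, and 45.7% with TSA.

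Npat, the activator of histone genes in the histone locus body, had the opposite course. It was at 9.30 FPKM in 1-cell, 11.2 FPKM in early 2-cell and 41.2 FPKM in late 2-cell embryos. With TSA it was at 29.8 FPKM, between the early and the untreated late 2-cell groups. The ratio of Slbp to Npat was 133 in 1-cell, 97.5 in early 2-cell and 5.19 in late 2-cell embryos, and 7.20 with TSA. Npat and Atm, a kinase gene of the DNA damage response, lie on opposite strands, and the start sites of their RefSeq promoter windows are 376 bases apart. Atm, looked up for this position after its values had been seen, was at 10.9, 22.9 and 197 FPKM by stage and at 169 FPKM with TSA. Both genes of the pair were thus highest in untreated late 2-cell embryos and somewhat lower with TSA. Such directions were common. Among genes with at least 1 FPKM in either group compared, 71.7% were higher in late than in early 2-cell embryos. Only 43.3% were higher with TSA than without.

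Casp8ap2, whose product FLASH binds Lsm11 and links NPAT's locus body to cleavage, had the smallest range of the members in the values as deposited. It was at 107 FPKM in 1-cell, 105 FPKM in early 2-cell and 106 FPKM in late 2-cell embryos, and at 95.4 FPKM with TSA. Over these 4 groups its range on the log2(FPKM + 1) scale was 0.16, smaller than that of all but 0.25% of the 13410 genes with at least 1 FPKM in some group. The median range of these genes was 1.54. This depends on the scaling, since the late minus early 2-cell difference of Casp8ap2 was 0.0089 as deposited, -0.60 after median-ratio scaling and -0.45 after quantile normalization. After median-ratio scaling Eri1 (-0.07), Lsm10 (-0.41) and Zfp473 (-0.56) differed less in that comparison. The gene lies on chromosome 4 from 32615470 to 32653271.

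Lsm10 and Lsm11 replace the Sm proteins D1 and D2 in the ring of the U7 snRNP and so set it apart from the spliceosomal snRNPs. Lsm10 was at 85.8, 116 and 133 FPKM in 1-cell, early 2-cell and late 2-cell embryos, and at 112 FPKM with TSA. Lsm11, the partner that carries the docking site for FLASH, was at 3.53, 3.75 and 2.19 FPKM by stage and at 2.09 FPKM with TSA. Per length, Lsm10 was therefore listed 24.3, 30.9 and 60.7 times as high as Lsm11 by stage and 53.6 times with TSA. Lsm10 lies on chromosome 4 (126096562 to 126098584) and Lsm11 on chromosome 11 (45928266 to 45944996).

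Zfp473, a zinc finger protein whose human counterpart binds LSM11 and the complex of SLBP with the stem-loop, was low in all groups. It was at 2.91, 2.74 and 2.45 FPKM by stage and at 3.02 FPKM with TSA. Its range over the 4 groups was 0.22 on the log2(FPKM + 1) scale as deposited, smaller than that of all but 0.54% of genes. Its late minus early 2-cell difference was -0.11 as deposited, -0.56 after median-ratio scaling and -1.22 after quantile normalization. Eri1, the exonuclease that binds the stem-loop together with SLBP and trims and degrades histone mRNA, was at 9.56, 7.57 and 11.0 FPKM by stage and at 12.7 FPKM with TSA. Zfp473 lies on chromosome 7 (44731480 to 44748617) and Eri1 on chromosome 8 (35465265 to 35495533), where the predicted gene Gm51568 overlaps it in RefSeq. No RefSeq gene overlaps any of the other 6 members.

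**Figure D1:**
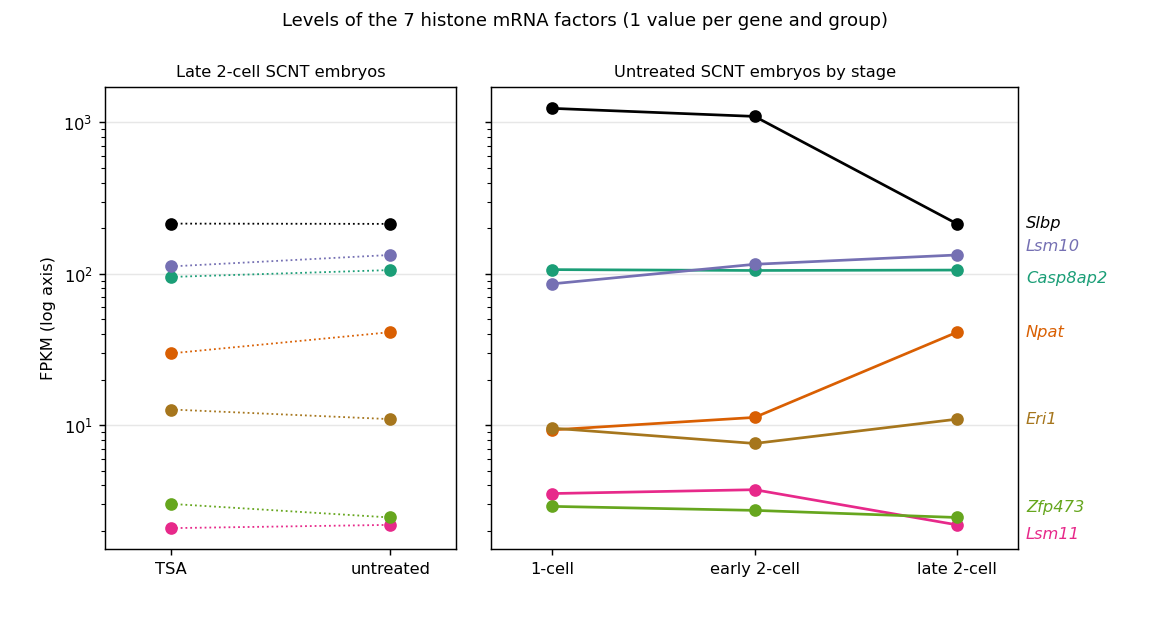
FPKM of the 7 members on a log axis, in TSA-treated and untreated late 2-cell embryos on the left and by stage in untreated embryos on the right, with 1 point per gene and group and no error. Slbp falls to 214 FPKM in late 2-cell embryos while Npat reaches 41.2 FPKM, and the other 5 genes differ by at most 1.79-fold over the 4 groups.

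Ordered by level, Slbp came first in every group and Casp8ap2 and Lsm10 came next. Casp8ap2 was ahead of Lsm10 in 1-cell embryos and behind it in the other 3 groups. Eri1 was ahead of Npat in 1-cell embryos (9.56 against 9.30 FPKM) and Npat ahead of Eri1 in the others. Lsm11 and Zfp473 held the last 2 places throughout, with Zfp473 last in the 2 earlier groups and Lsm11 last in both late 2-cell groups.

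The histone genes themselves were summed beside their regulators. Across the 68 rows, the summed FPKM was 188 in 1-cell, 187 in early 2-cell and 423 in late 2-cell embryos. The ratio of late to early 2-cell embryos was 2.26 as deposited and 1.47 after median-ratio scaling. With TSA the sum was 199, against 423 without, a ratio of 0.471. These sums are 0.0372%, 0.0361% and 0.0809% of the column's summed FPKM by stage and 0.0389% with TSA. Transcripts without a poly(A) tail are taken up in part in libraries of poly(A) RNA, and how large that part was is not known here. Near-identical copies of histone genes share reads, so single rows are uncertain. Rows listed at 0 numbered 6, 5 and 4 by stage and 6 with TSA.

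Within an almost equal sum, the classes of histone differed between the 1-cell and early 2-cell stages. H4 rows summed to 58.2 FPKM in early 2-cell and 38.2 FPKM in 1-cell embryos, and H3 rows to 11.9 and 9.07 FPKM. H2B rows summed to 53.3 FPKM in early 2-cell and 63.0 FPKM in 1-cell embryos, H1 rows to 27.5 and 36.2 FPKM, and H2A rows to 36.3 and 41.2 FPKM. Single rows carried each of these lower sums. Hist1h1a was at 18.6 FPKM in early 2-cell and 30.9 FPKM in 1-cell embryos, a larger gap than that of the H1 sum. The gaps of Hist1h2ba and Hist1h2aa, whose values follow, were larger than those of the H2B and H2A sums. Without Hist1h1a, Hist1h2ba and Hist1h2aa, the H1, H2B and H2A sums were higher in early 2-cell than in 1-cell embryos. Hist1h2aa and Hist1h2ba encode the H2A and H2B forms first known from testis. Hist1h2aa was at 31.1, 10.1 and 4.72 FPKM by stage and at 1.44 FPKM with TSA. Hist1h2ba was at 27.2, 12.6 and 4.41 FPKM by stage and at 1.28 FPKM with TSA. Without these and the other testis-type or variant rows, the sum in early 2-cell embryos was 1.28 times that in 1-cell embryos, instead of 0.998 times.

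At the late 2-cell stage H2A and H4 made up most of the sum. H2A rows summed to 195 FPKM in late 2-cell and 36.3 FPKM in early 2-cell embryos, a ratio of 5.37, and H4 rows to 119 and 58.2 FPKM. H2B was the class that went the other way, with 33.4 FPKM in late 2-cell and 53.3 FPKM in early 2-cell embryos. The rows with the largest gains were Hist1h4d, Hist1h2ag and Hist1h2ao. Hist1h4d was at 66.9 FPKM in late 2-cell and 4.19 FPKM in early 2-cell embryos, Hist1h2ag at 53.4 and 4.36 FPKM, and Hist1h2ao at 51.4 and 3.48 FPKM. Hist2h2ac, the fourth row by level, was at 33.2 and 2.22 FPKM. Hist1h4c was lower, at 18.2 FPKM in late 2-cell and 28.9 FPKM in early 2-cell embryos.

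With TSA every class was lower in sum than without. The ratio of TSA-treated to untreated late 2-cell embryos was 0.370 for H4, 0.438 for H2B, 0.466 for H3, 0.519 for H2A and 0.550 for H1. With TSA Hist1h4d was at 11.5 FPKM, against 66.9 FPKM in untreated embryos, and this row held 24.8% of the difference in the sum. Hist1h2ag was at 23.8 against 53.4 FPKM and Hist1h2ao at 24.8 against 51.4 FPKM. Hist1h2ap was higher, at 17.2 FPKM with TSA and 5.42 FPKM without. Of the 36 histone rows with at least 1 FPKM in either group, 13 were lower with TSA by at least 1 on the log2(FPKM + 1) scale. By the same measure 1, Hist1h2ap, was higher, against 4.08% lower and 2.51% higher among all genes kept in the same way. Low rows can be more than 2-fold lower in FPKM without reaching it, such as Hist1h3a at 0.59 against 1.71 FPKM. In all, 3 of the 36 rows had a difference above 0. The other 32 rows were under 1 FPKM in both.

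**Figure D2:**
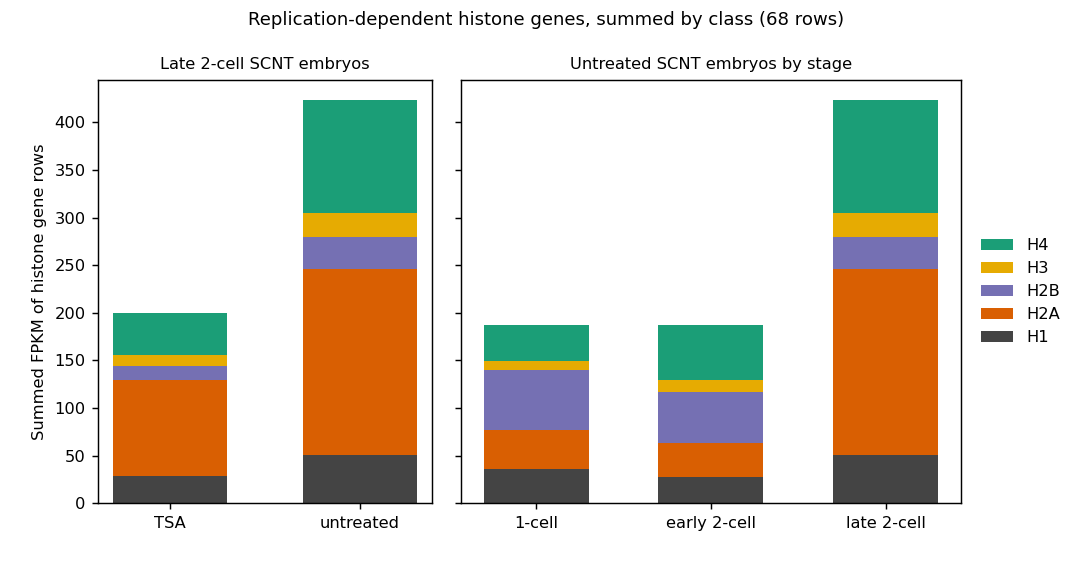
Summed FPKM of the 68 histone gene rows, stacked by class, in TSA-treated and untreated late 2-cell embryos on the left and by stage in untreated embryos on the right, without error bars because each group has 1 value. The untreated late 2-cell bar reaches 423 FPKM, mostly H2A and H4, and the other bars lie between 187 and 199 FPKM.

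The members were then set against these sums. The ratio of Slbp to the histone sum was 6.60 in 1-cell, 5.85 in early 2-cell and 0.505 in late 2-cell embryos, and 1.08 with TSA. The histone sum was 20.2, 16.6 and 10.3 times the level of Npat by stage and 6.69 times with TSA. Over Casp8ap2 it was 1.76, 1.78 and 4.00 by stage and 2.09 with TSA. Over Lsm11 it was 53.1, 49.99 and 193 by stage and 95.6 with TSA. Over Lsm10 it was 2.19, 1.62 and 3.18 by stage and 1.78 with TSA. Over Zfp473 it was 64.6, 68.5 and 172 by stage and 66.1 with TSA, and over Eri1 19.6, 24.7 and 38.6 by stage and 15.7 with TSA. As deposited, Npat and Lsm10, like the histone sum, were highest in untreated late 2-cell embryos, which for Lsm10 did not hold against early 2-cell embryos after median-ratio scaling (-0.41).

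Late 2-cell embryos with and without TSA were set side by side first, to describe the histone mRNA factors in embryos given TSA. A gene was kept if either group had 1 FPKM or more. It was counted as different when its log2(FPKM + 1) values differed by at least 1. That is 2-fold in FPKM + 1, written as 2-fold below, and a low gene can differ 2-fold in FPKM without reaching it. Among the 7 members, 0 differed by this measure, against 6.59% of 12756 kept genes (2.51% higher and 4.08% lower with TSA). A count of 0 of 7 is near that background and is no result about the members. Npat had the largest difference at -0.45, followed by Lsm10 at -0.25, Zfp473 at 0.22 and Eri1 at 0.20. Slbp differed by 0.0060 as deposited, and only 0.964% of genes had a smaller difference. After median-ratio scaling Slbp differed by 0.16, and after quantile normalization by 0.03. The median of the 7 was -0.05, and that of all kept genes -0.08. The signs of Casp8ap2 (-0.15) and Lsm11 (-0.05) changed after median-ratio scaling, and that of Lsm11 also after quantile normalization. Median-ratio scaling moved the median of all genes to 0.06. Of the genes that differed, 38.1% were higher with TSA as deposited, 58.2% after median-ratio scaling and 52.7% after quantile normalization. The oocyte markers summed to 2142 FPKM with TSA and 2839 FPKM without, and their part in these values was not tested.

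Untreated early 2-cell embryos were next set against 1-cell embryos, to describe the factors across the first cleavage. Again 0 of the 7 members differed at least 2-fold, against 10.8% of 10117 kept genes (3.72% higher and 7.12% lower). Lsm10 had the largest difference at 0.42, with 116 FPKM in early 2-cell and 85.8 FPKM in 1-cell embryos. Next were Eri1 at -0.30, Npat at 0.25 and Slbp at -0.18. The median of the members was -0.02 and that of all genes -0.08. Casp8ap2 and Zfp473, at -0.02 and -0.06, changed sign after median-ratio scaling, and Casp8ap2 also after quantile normalization. Of the genes that differed, 34.3% were higher in early 2-cell embryos as deposited, 48.9% after median-ratio scaling and 47.7% after quantile normalization.

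Untreated late 2-cell embryos were then set against early 2-cell embryos, the interval in which the mouse genome is broadly activated. Of the 7 members, 1 was at least 2-fold higher (Npat) and 1 at least 2-fold lower (Slbp), against 47.9% and 10.9% of 12794 kept genes. In either direction 58.8% of genes differed. With only 7 genes, a count of 2 of 7 beside that share is no result about the members. The median of the members was 0.01, and that of all genes 0.92.

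Slbp differed by -2.35, with 214 FPKM in late 2-cell and 1096 FPKM in early 2-cell embryos, 5.13 times lower. Of all kept genes, 1.93% had a lower difference. Relative to the median of all genes the difference was -3.27. Over 5 other settings it ran from -2.97 to -2.15, at least 2-fold lower in each. Oocyte markers summed to 2839 FPKM in late 2-cell and 8202 FPKM in early 2-cell embryos, and their part in the Slbp value was not tested.

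Npat differed by 1.78, with 41.2 FPKM in late 2-cell and 11.2 FPKM in early 2-cell embryos, a ratio of 3.66. Since 27.3% of genes had a higher difference, this size was common, and relative to the median of all genes it was 0.87. After median-ratio scaling Npat differed by 1.20, and after quantile normalization by 0.91, which no longer counts as 2-fold. Those scalings moved the median of all genes to 0.42 and -0.14. They also moved the share of higher genes among those that differed, which was 81.4% as deposited, to 65.9% and 49.0%.

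The other 5 members differed by less than 1. Eri1 was at 0.48, Lsm10 at 0.20, Casp8ap2 at 0.0089, Zfp473 at -0.11 and Lsm11 at -0.57. All 5 lay below the median of all genes, and for Eri1, Lsm10 and Casp8ap2 the sign was negative after median-ratio scaling and after quantile normalization. Lsm11 was at least 2-fold lower after these scalings, by -1.02 and -1.65, and Zfp473 after quantile normalization, by -1.22.

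**Figure D3:**
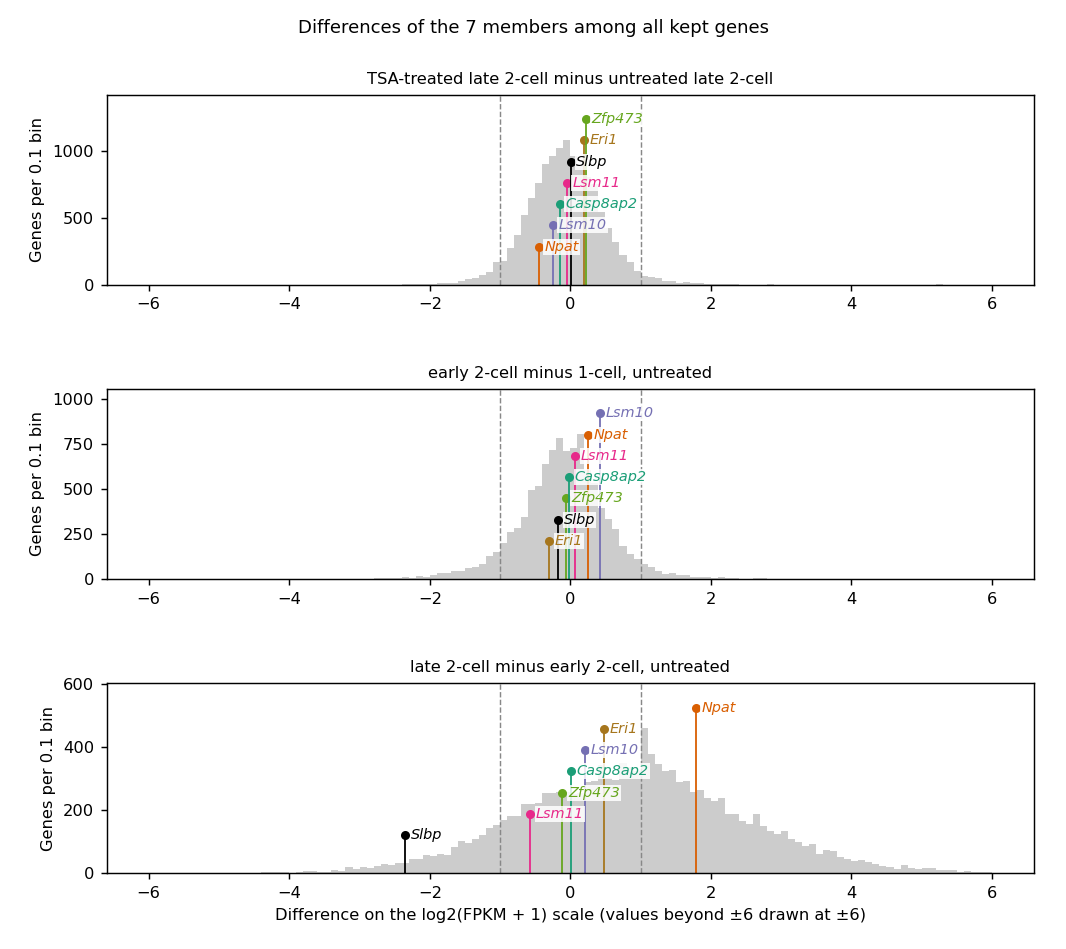
Histograms of the difference on the log2(FPKM + 1) scale over all kept genes in the 3 comparisons, in bins of 0.1 (values beyond 6 drawn at 6), with a coloured pin at the value of each member (pin height has no meaning) and dashed lines at a difference of 1 either way. The members crowd near 0 in the upper 2 panels, while in the lowest panel Slbp lies at -2.35, in the left tail, and Npat at 1.78, inside the broad right side.

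Other genes of histone supply were described from 10 lists with 94 genes in the table. In late against early 2-cell embryos, 47 of 92 kept genes were at least 2-fold higher and 12 lower, 64.1% in all, beside 58.8% of all genes. The counts that follow stand beside 47.9% higher and 10.9% lower among all kept genes, and shares near these say nothing about a list. Among the regulators of histone gene transcription, 7 of 11 were higher and 0 lower, with a median of 1.40. Ccne1, the cyclin E that directs Cdk2 to NPAT, was at 324 FPKM in late 2-cell and 5.14 FPKM in early 2-cell embryos. Hinfp, the transcription factor of histone H4 genes, was at 104 and 4.67 FPKM. Cdk2 was at 26.9 and 4.60 FPKM and Coil, which encodes the Cajal body protein coilin, at 14.6 and 1.65 FPKM. Ccne2, the second E cyclin, was at 46.6 FPKM in late 2-cell and 58.6 FPKM in early 2-cell embryos.

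The ring proteins shared by U7 and spliceosomal snRNPs were mostly lower in late 2-cell embryos, with 3 of 5 kept genes lower, 1 higher and a median of -1.51. Snrpd3 was at 39.8 FPKM in late 2-cell and 145 FPKM in early 2-cell embryos and Snrpe at 499 and 1726 FPKM. Snrpb was the one higher gene, at 212 and 11.3 FPKM. The 2 proteins that Lsm10 and Lsm11 replace in U7 differed in opposite directions. Snrpd1 was at 294 FPKM in late 2-cell and 829 FPKM in early 2-cell embryos, and Snrpd2 at 537 and 101 FPKM. Snrpd1 was 9.04, 7.17 and 2.21 times as high as Lsm10 by stage, and Snrpd2 7.50, 26.9 and 245 times as high as Lsm11. Rnu7, the U7 RNA gene, was listed at 0 in all 4 groups. In libraries labelled as poly(A) RNA, such a value does not show that the U7 RNA was absent.

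In the cleavage complex shared with polyadenylation, 5 of 11 genes were higher in late than in early 2-cell embryos and 1 was lower, near the shares of all genes, with a median of 0.86 beside 0.92. Cpsf3, the endonuclease, was at 43.6 FPKM in late 2-cell and 5.05 FPKM in early 2-cell embryos. Its partner Cpsf2 was at 25.6 and 24.4 FPKM, and Sympk, the scaffold, at 3.06 and 0.61 FPKM. Of the cap-binding and elongation factors, 8 of 9 were higher and 0 lower, with a median of 2.88. Nelfe was at 265 and 10.6 FPKM and Ncbp1, the large cap-binding subunit, at 57.2 and 4.04 FPKM.

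Among genes of translation and export with Slbp, 4 of 6 were higher and 0 lower, with a median of 1.97. Mif4gd, which bridges SLBP to the translation machinery, was at 17.6 FPKM in late 2-cell and 5.00 FPKM in early 2-cell embryos. The lowest difference was that of Ddx19a, at 14.1 and 26.2 FPKM, short of the threshold. Of the decay genes 5 of 16 were higher and 2 lower, with a median of 0.23 as deposited and -0.38 after median-ratio scaling. Zcchc11, a terminal uridylyltransferase, was at 28.8 and 2.25 FPKM, and Upf1, the helicase required for histone mRNA decay, at 53.6 and 62.4 FPKM. For SLBP protein turnover, 4 of 6 genes were higher and 0 lower, with a median of 2.27. Ccnf, whose product cyclin F marks SLBP for destruction in human cells, was at 20.4 and 1.52 FPKM, and Cdk1 at 174 and 12.9 FPKM. The lowest differences were those of Ccnb1, at 972 and 1523 FPKM, and Csnk2a2, at 30.1 and 38.6 FPKM, both short of the threshold.

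Histone chaperones were split, with 3 of 12 higher, 4 lower and a median of -0.07. Asf1a, a chaperone of H3 and H4, was at 105 FPKM in late 2-cell and 524 FPKM in early 2-cell embryos, and Rbbp7 at 217 and 1341 FPKM. Chaf1b, of the replication-coupled assembly factor, was at 36.6 and 5.54 FPKM. S-phase genes were higher in 9 of 14 and lower in 1, with a median of 1.24. Prim1, a primase subunit, was at 184 and 8.79 FPKM, and Mcm2 at 10.1 and 30.3 FPKM.

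With TSA, 1 of 92 kept genes of these lists was at least 2-fold higher and 2 were lower, 3.26% in all, beside 6.59% of all genes. The higher gene was Mcm2, at 21.9 FPKM with TSA and 10.1 FPKM without. The lower ones were Sympk, at 0.75 against 3.06 FPKM, and Ddx19a, an RNA helicase gene, at 6.34 against 14.1 FPKM. Hinfp was at 167 against 104 FPKM and Ccne1 at 396 against 324 FPKM, both short of the threshold. Ccne2 was at 28.1 against 46.6 FPKM. List medians ran from -0.39 for the 2 replaced Sm proteins to 0.29 for SLBP protein turnover, beside -0.08 for all genes. The S-phase genes had a median of 0.21 and the decay genes of -0.23. After median-ratio scaling these were 0.35 and -0.09, beside 0.06 for all genes.

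In early 2-cell against 1-cell embryos, 5 of 88 kept genes of the lists were higher and 7 lower, 13.6% in all, beside 10.8% of all genes. The lower genes were Prim1, Nxf1, Cdc25a, Hat1, Ccnf, Cpsf3 and Cdk1. Prim1 was at 8.79 FPKM in early 2-cell and 37.3 FPKM in 1-cell embryos, and Nxf1, which encodes the general mRNA exporter, at 3.44 and 15.7 FPKM. Hat1, the acetyltransferase of new histone H4, was at 65.7 and 171 FPKM. The higher genes included Snrpd2, Clp1, Lsm2 and Lsm7. Snrpd2 was at 101 FPKM in early 2-cell and 26.5 FPKM in 1-cell embryos, and Lsm2, of the ring that promotes decay, at 194 and 73.0 FPKM.

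**Figure D4:**
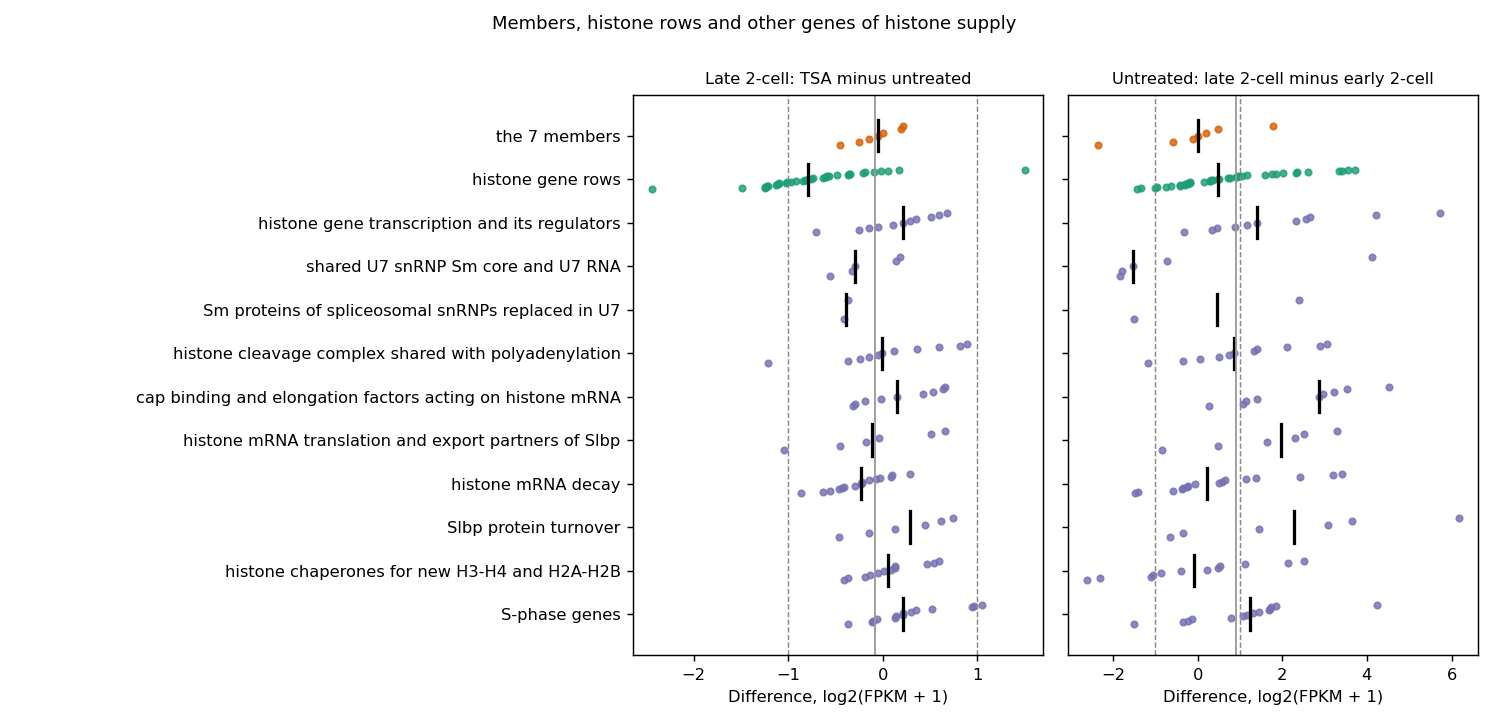
Difference on the log2(FPKM + 1) scale of each kept gene (points) and the median of each group (black bars), for the 7 members, the histone rows and 10 lists, in TSA-treated minus untreated late 2-cell embryos on the left and late minus early 2-cell embryos on the right. The grey line is the median of all kept genes and dashed lines mark a difference of 1. With TSA the histone rows lie left of the other groups with a median of -0.78, and on the right the members have a median of 0.01 beside 0.92 for all genes.

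Genes with the most similar course were found by the largest gap between log2(FPKM + 1) profiles over the 4 groups, each centred on its mean, among 7160 genes with a mean of at least 5 FPKM, leaving out predicted genes named Gm or Rik. For Slbp these were Fbxo43, Fbp1 and Clec10a, with gaps of 0.06, 0.07 and 0.07. Fbxo43, which encodes the meiotic inhibitor Emi2, was at 71.3, 66.7 and 12.1 FPKM by stage and at 12.4 FPKM with TSA. Few genes had such a course, since 3.41% lay within a gap of 0.5 of Slbp, against 10.8% for Npat and 15.3% to 20.3% for the other members. For Npat the closest were Ntan1, Mmgt1 and Thap4, and Ntan1 was at 19.2, 23.6 and 86.7 FPKM by stage and at 63.5 FPKM with TSA. The closest gene was Serpinb3a for Casp8ap2, Ube4b for Lsm10, Actr3 for Lsm11, Plekha8 for Zfp473 and Abhd5 for Eri1. With 4 values per gene such likeness is a description.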

How the data were processed

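RNA of SCNT embryos was measured in 24 libraries, and the other 35 of the 59 samples are chromatin libraries. These and 4 RNA libraries of Dux-injected embryos were not analysed here. The authors deposited 1 table of log2(FPKM + 1) values, per the file headers. The submitters' processing notes name the build mm10 and the tools Cufflinks, StringTie 1.3.4 and HISAT2 2.1.0, besides SAMtools 1.7, deepTools 2.5.7 and Bowtie2 2.3.4.3. Not given in the sources used here are the step each tool served, the annotation, and how 5 libraries became 1 column. Of 6 value columns 4 were matched to groups. The 1-cell match is inferred from a name of 13 h. The other 2 columns were not used.

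FPKM was recovered as the power of 2 minus 1 (Python 3.11.15, pandas 2.3.3, numpy 2.4.6). FPKM of a gene depends on the rest of its column. Whole-read steps were not clear among low values of genes spanning at most 2000 bases, with at best 24.5% to 26.9% within 0.1 of a whole multiple against 20% without steps, so depth is unknown. Differences are the first named group minus the second on the log2(FPKM + 1) scale, which understates low genes. With 1 value per group the limma fit that was planned could not be made, so no test is given. Differences, scalings and profile searches were tested on simulated data. Alternatives were pseudocounts of 0.1 and 5, equal column sums, median-ratio scaling, quantile normalization and other filters. The members and lists were chosen with earlier results of these data known. Named list genes were the 2 highest and 2 lowest differences of a list or genes of a stated role. Named histone rows were the 5 highest and the 3 largest gains and losses per comparison.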

Additional observations from a re-analysis of the deposited data

How the results depend on the processing

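No paired analysis was possible because the table has 1 column per group, and for the same reason no library could be left out. Of 105 alternative values for single members, 96 stayed within 1.5-fold and on the same side of the 2-fold threshold, and the 9 others all concern late against early 2-cell embryos under median-ratio scaling or quantile normalization. There the count of higher members was 0 instead of 1 with quantile normalization, and the count of lower members was 2 with median-ratio scaling and 3 with quantile normalization instead of 1. The ratio of the histone sums, late over early 2-cell, was 1.95 without Hist1h4d and 1.47 with median-ratio scaling, against 2.26. For TSA over no treatment it was 0.528 and 0.524 under the same changes, against 0.471. With no filter, 6.00% of genes differed between early 2-cell and 1-cell embryos. Median-ratio scaling gave late minus early 2-cell medians of 0.97 for transcription regulators, -2.12 for the shared Sm core, -0.16 for the 2 replaced Sm proteins, -0.38 for decay, -0.69 for chaperones and 0.69 for S-phase genes, and an early 2-cell minus 1-cell median of 1.14 for the replaced Sm proteins. The cause was not tested. Without replicates, differences of low genes such as Lsm11 and Zfp473 carry the least weight.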
